A study of Mus musculus with 9 samples.

Results

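Of the 20467 genes of the deposited table, 80 carry the prediction ORF, meaning that a constitutive decay element (CDE) was predicted in their open reading frame, the coding sequence. These 80 genes are described here. Membership was set by that entry alone, with no read count involved, though earlier results of these data were known when the class was chosen. Another 55 genes were predicted to hold a conserved CDE in the 3′ untranslated region (3′ UTR), 53 a CDE in the 3′ UTR that is not conserved, and 20279 no CDE. Rc3h1 and Rc3h2 encode the Roquin proteins, which recognise short stem-loops in mRNAs and hand those mRNAs to the deadenylation and decapping machinery. The CDE stem-loop has a 3-base loop of pyrimidine, purine and pyrimidine, and it is best known from the 3′ UTR of Tnf, the gene of the inflammatory cytokine tumour necrosis factor. A coding sequence, unlike a 3′ UTR, is read by translating ribosomes.

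All 9 libraries were made from RAW264.7, a mouse macrophage cell line, which had received 100 ng/ml lipopolysaccharide (LPS) for 2 h before lysis. Roquin IP (3 libraries) was RNA recovered with rabbit polyclonal antibodies on protein A/G beads, control IP (3 libraries) was RNA recovered with beads and no antibody, and input (3 libraries) was lysate RNA taken before immunoprecipitation. Antibody effects unrelated to Roquin therefore cannot be told apart from binding to Roquin. The series' design text names the replicates as biological, and the p-values measure the spread between these libraries. Library totals were 1799390 to 12975767 reads. Of 12 macrophage markers 11 were in the table, and all 11 had reads in every input, whereas the 5 fibroblast and 4 epithelial markers were at 0 in every input. Of the T cell markers 4 of 5 in the table, Cd3e, Cd3g, Cd4 and Cd8a, were at 0 in every input, and the 5 summed to 1.98 to 7.12 CPM (counts scaled to 1e+06 reads) there. Of the 4 endothelial markers Cdh5 was at 0 in every input, and the 4 summed to 0.496 to 1.98 CPM. Of the 80 members, 67 had at least 1 read and 55 had enough reads to be tested. The other 25 fell under the count filter and are described last.

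The stem-loops themselves were located in the coding sequences of GENCODE M21 transcripts (GRCm38). The letters searched, on the mRNA strand only, were TTC, then pyrimidine, purine and pyrimidine, then GAA, which form 3 base pairs around the loop. A stem-loop was counted as full where at least 2 further Watson-Crick pairs continued the stem, which gives 5 or more pairs. All 80 members held a full stem-loop, 79 of them in the longest coding transcript and Tmem192 in another transcript. Across the 20131 genes of the table that were matched to the annotation, 1076 (5.34%) had the 9-base core in the coding sequence of the longest coding transcript, and 84 (0.417%) had the full stem-loop there. Because a CDE is such a stem-loop, its presence in the members is what the prediction names and not a finding. The stem-loops below are those of the mRNAs that stood out in Roquin IP, shown for comparison with those of other members. Whether the recovery of these mRNAs depends on them was not tested. Each sequence is 25 bases long, and capitals mark the stem and its loop.
D5Ertd579e, first: taacaCACTTCTATGAAGTGgatat
D5Ertd579e, second: cttttaTCTTCCATGAAGActtgct
Ipo11, first: tagaTATATTCCACGAATATAatca
Ipo11, second: cagtggATTTCTGTGAAATtcaagt
Pole2: taattaTCTTCCGTGAAGActtagt
B4galt5: aggctCCCTTCCATGAAGGGcccga
The first core of D5Ertd579e lay at chr5:36615511-36615519 and the second at chr5:36613984-36613992, both on the minus strand in exon 6 of 9. The cores of Ipo11 lay at chr13:106886719-106886727 in exon 12 of 30 and at chr13:106879683-106879691 in exon 15, both on the minus strand. The core of Pole2 lay at chr12:69206479-69206487 on the minus strand in exon 16 of 19. The core of B4galt5 crossed the junction of exons 3 and 4 (chr2:167307668-167309230, minus strand), so it exists in the spliced mRNA but not as a run of letters in the genome.

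Roquin IP was set against control IP to ask which of these mRNAs the antibodies recovered beyond the level of beads alone. In this comparison 4 of the 55 tested members were higher in Roquin IP and none was lower: D5Ertd579e, Ipo11, Pole2 and B4galt5. The share called higher was 7.27% of the tested members, against a background of 3.76% of all 9567 tested genes (edgeR quasi-likelihood test, Benjamini-Hochberg adjusted p under 0.05). The other 51 tested members were not called. At an unadjusted edgeR p under 0.05, 15 members were higher (background 7.93%) and 1, Dync1h1, was lower (background 2.13%). DESeq2 called 8 members higher (background 4.96%) and 0 lower (background 0.0627%), the further 4 being Appbp2, Glt8d1, Mios and Zcchc2.

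D5Ertd579e, a gene still listed under a provisional name, had 6782, 6092 and 5552 CPM (reads per 1e+06 reads of the library, with library sizes scaled by TMM factors) in the 3 Roquin IP libraries. Its levels were 94.4, 40.2 and 30.5 CPM in control IP and 35.0, 34.8 and 69.9 CPM in the input. Every Roquin IP library lay far above every other library. The difference was 112-fold against control IP (log2 6.81, SE 0.52; edgeR adjusted p = 1.38e-06). The authors' deposited table gives this gene a linear ratio of 112.42. This gene accounted for the higher share of reads that the class took in Roquin IP. The 80 members together held 0.725% ± 0.0989 (SD, n = 3) of all Roquin IP reads, beside 0.345% ± 0.0340 for control IP and 0.345% ± 0.0270 for input. With D5Ertd579e left out the shares were 0.301% ± 0.0630, 0.338% ± 0.0307 and 0.340% ± 0.0277 in that order, and the groups overlapped. These shares are of all reads of a library, without TMM scaling. Tnf alone took 733448 of 3547517, 3535599 of 12975767 and 2275585 of 12898468 reads of the Roquin IP libraries. The control IPs held 7679, 8989 and 12132 Tnf reads. Reads of Tnf lower the share left to every other gene, so the overlap does not show that the remaining members were not higher. None of the 4 called mRNAs shares exon bases with another gene of the table in GENCODE M21; Ipo11, Pole2 and D5Ertd579e overlap predicted genes outside it.

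Ipo11 encodes importin 11, a nuclear import receptor of the karyopherin family. It had 594, 536 and 1016 CPM in Roquin IP against 53.3, 40.2 and 54.1 CPM in control IP and 75.3, 86.2 and 83.8 CPM in the input. The Roquin IP libraries were all above the others, with library 3 the highest, and the control IPs were all below the inputs. Ipo11 was 14.5-fold above control IP in Roquin IP (log2 3.86, SE 0.33; edgeR adjusted p = 3.39e-06).

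Pole2 encodes an accessory subunit of DNA polymerase epsilon, which works at the replication fork. Its levels were 73.8, 65.0 and 110 CPM in Roquin IP, 6.70, 8.03 and 8.25 CPM in control IP, and 5.29, 11.5 and 6.94 CPM in the input. The Roquin IP group did not overlap the others, while control IP and input overlapped each other. The difference from control IP was 10.8-fold (log2 3.43, SE 0.36; edgeR adjusted p = 2.54e-05).

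B4galt5 encodes a galactosyltransferase of the Golgi that makes lactosylceramide. It had 554, 589 and 722 CPM in Roquin IP, 56.6, 81.3 and 73.7 CPM in control IP and 54.6, 46.3 and 76.9 CPM in the input. Again all 3 Roquin IP libraries were above the other 6. B4galt5 was 8.80-fold above control IP in Roquin IP (log2 3.14, SE 0.30; edgeR adjusted p = 1.05e-05). These 4 mRNAs were called higher in all 16 alternatives of the analysis, which included leaving out each library, another scaling, no filter, DESeq2 and the replicate block. Over those alternatives the log2 fold change ran from 6.02 to 7.44 for D5Ertd579e, 3.07 to 4.03 for Ipo11, 2.62 to 3.58 for Pole2 and 2.31 to 3.25 for B4galt5. The authors' deposited table also gave these 4, and no other member, a p under 0.05: 4 of 66 members with a p (6.06%), against 1.81% of genes.

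**Figure D1:**
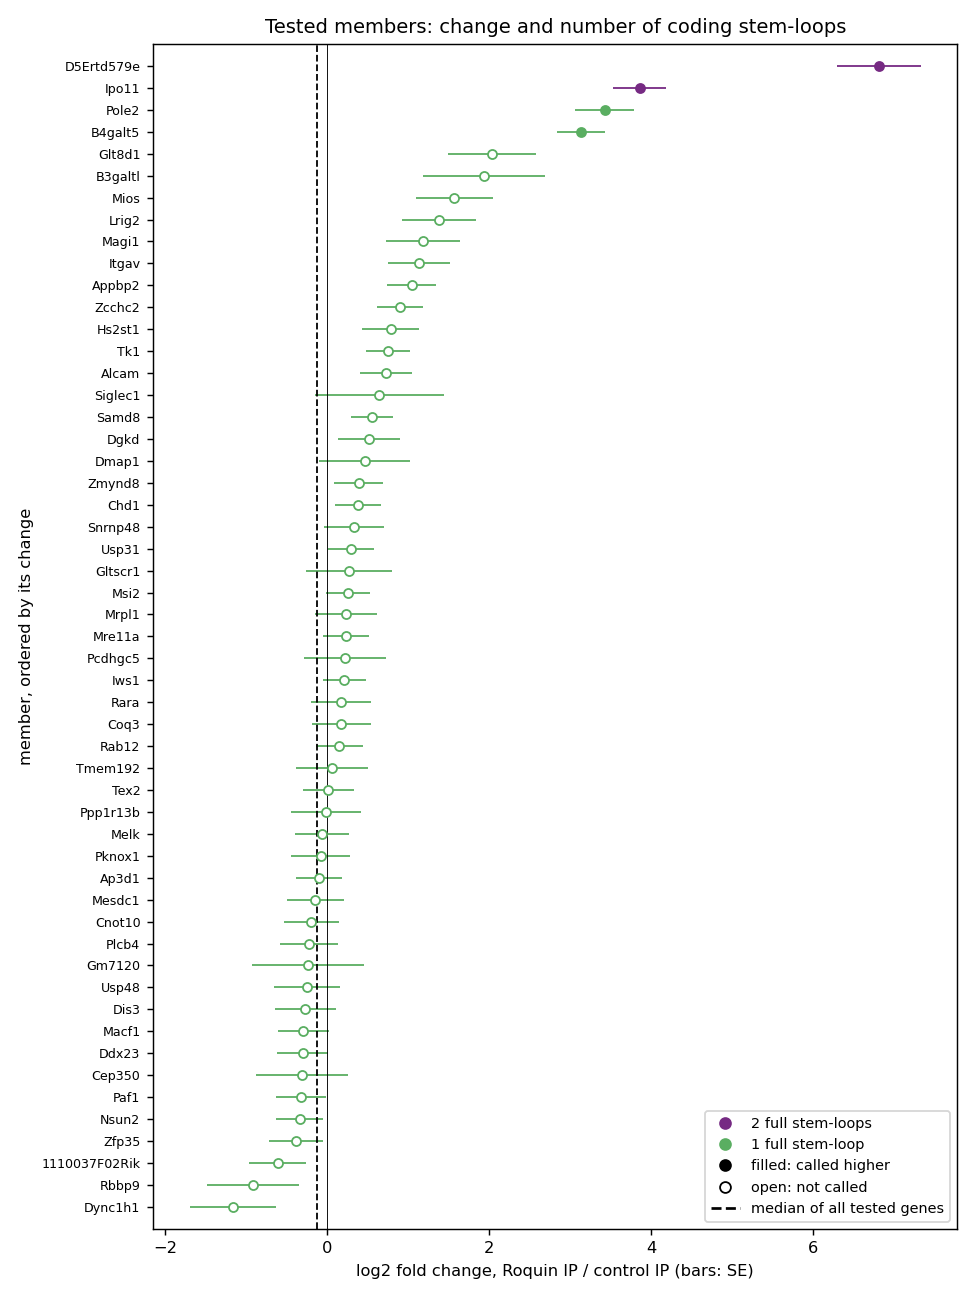
Of the 55 tested members, 53 are ordered by log2 fold change of Roquin IP against control IP (x axis; bars are the standard error of the edgeR fit), coloured by the number of full coding stem-loops. The 4 filled points at the top, D5Ertd579e, Ipo11, Pole2 and B4galt5, were called higher; the open points lie between -1.16 and 2.04, and the dashed line marks the median of all tested genes, -0.12.

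Below the 4 called mRNAs came a group of members whose Roquin IP libraries were high without passing the test. Glt8d1, which encodes a protein of the glycosyltransferase 8 family, was the nearest. Its levels were 13.8, 30.3 and 20.5 CPM in Roquin IP, 8.53, 3.33 and 4.38 CPM in control IP and 1.22, 6.72 and 4.96 CPM in the input. All 3 Roquin IP libraries were above the other 6, and the log2 difference from control IP was 2.04 (SE 0.54; edgeR adjusted p = 0.0557). With 1 library left out the edgeR adjusted p ran from 0.0184 (without input replicate 1) to 0.367 (without Roquin IP replicate 2); it was 0.0200 without control IP replicate 1 and 0.260 without control IP replicate 2. It was 0.00613 in DESeq2 and 0.00421 without the count filter. An exon of Glt8d1 overlaps 252 bases of Spcs1 on the opposite strand, and no source used here gives the strand handling of the counts, so its level is uncertain. The stem-loop of Glt8d1 lay at chr14:31010914-31010922 (plus strand, exon 8) and is shown with that of Mios (chr6:8215532-8215540, plus strand, exon 3), the next of the members that were called against the input.
Glt8d1: cgtaaaCTTTCCATGAAAGccagca
Mios: ttgcttCCTTCTATGAAGGtcaggt

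Replicate numbers paired the libraries in these data, and the fit with the number as a block called 11 members higher over control IP (background 5.52%) and 0 lower (background 0.115%). The 7 members beyond the 4 were Appbp2, Glt8d1, Itgav, Lrig2, Magi1, Mios and Zcchc2. Their adjusted p in the fit with the replicate block lay between 0.00161 for Mios and 0.0471 for Glt8d1. Appbp2 illustrates the change: its levels were 78.0, 57.4 and 110 CPM in Roquin IP and 40.8, 32.1 and 45.9 CPM in control IP. Library 2 was the lowest in both groups and library 3 the highest in both, and the groups did not overlap. The log2 difference was 1.05 (SE 0.30; edgeR adjusted p = 0.0909 without the block and 0.00756 with it).

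Mios encodes a subunit of GATOR2, a complex of amino acid signalling to mTORC1. It had 60.8, 87.9 and 103 CPM in Roquin IP, 10.4, 32.5 and 40.8 CPM in control IP and 11.4, 37.6 and 24.8 CPM in the input. Roquin IP was above both backgrounds in every library (log2 1.57 against control IP, SE 0.47; edgeR adjusted p = 0.111). Itgav, the integrin alpha V chain, showed another pattern. It had 37.8, 70.5 and 85.1 CPM in Roquin IP, 20.7, 24.3 and 42.9 CPM in control IP, and 99.8, 49.8 and 83.8 CPM in the input. Roquin IP overlapped the other groups for Itgav, and all control IP libraries were below all inputs. B3galtl, a glucosyltransferase of the ER, was 10.1, 7.71 and 10.3 CPM in Roquin IP and 0, 3.33 and 3.44 CPM in control IP, and this difference at low levels was not called (edgeR adjusted p = 0.323). Lrig2 (log2 1.38, SE 0.46; edgeR adjusted p = 0.183) and Magi1, a scaffold of cell junctions (log2 1.18, SE 0.46; edgeR adjusted p = 0.318), did not overlap control IP either and were not called.

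For 14 of the 55 tested members (25.5%) all 3 Roquin IP libraries were above all 3 control IPs, against 10.7% of all tested genes. No member had all 3 below, against 8% of all tested genes. The median log2 fold change of the tested members was 0.22, with 35 of 55 (63.6%) positive, whereas over all tested genes the median was -0.12 and 39.8% were positive. Scaling by library size alone moved the median of all genes to -0.96 and that of the members to -0.61, so the sign of the class median depends on the scaling. The members' median lay 0.34 above that of all genes with TMM scaling and 0.35 above it with library size alone. Members are not replicates of a condition, and the difference between these medians was not tested. The 51 uncalled members had a median of 0.18.

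**Figure D2:**
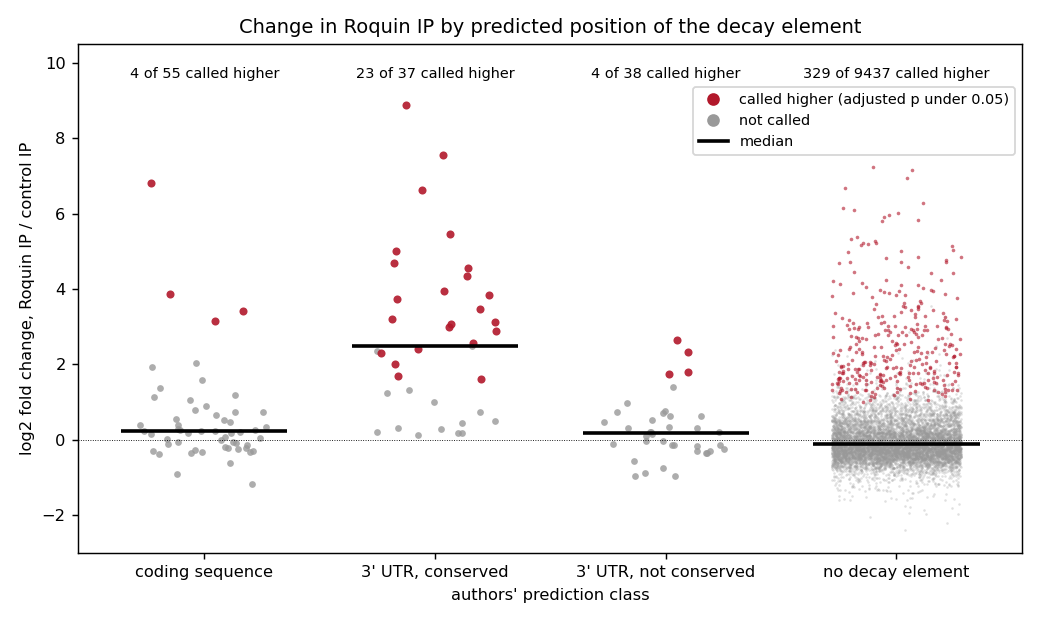
Log2 fold change of Roquin IP against control IP (y axis, TMM scaling) for every tested gene by the authors' prediction class, with points coloured where edgeR called the gene higher and a bar at the class median. Called higher were 4 of 55 members with a coding stem-loop, 23 of 37 genes with a conserved 3′ UTR element, 4 of 38 with one that is not conserved, and 329 of 9437 without an element; the class medians are 0.22, 2.48, 0.17 and -0.13.

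The coding class can be set beside the other prediction classes. Of the conserved 3′ UTR class, 23 of 37 tested genes were called higher, with a median log2 fold change of 2.48. Of the non-conserved 3′ UTR class, 4 of 38 were called, with a median of 0.17. Among genes without a predicted element 329 of 9437 were called, with a median of -0.13. These are counts side by side, with no test between the classes. For scale, Tnf was higher by log2 7.57 and Nfkbid, a nuclear inhibitor of NF-kappaB, by log2 8.87, while Actb (log2 -0.52) and Gapdh (log2 -0.61) were not called (edgeR adjusted p = 0.723 and 0.639).

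The uncalled majority included mRNAs with ample reads. Nsun2, an RNA cytosine methyltransferase, had 141, 201 and 242 CPM in Roquin IP and 212, 238 and 290 CPM in control IP. Its groups overlapped, and the log2 difference was -0.34 (SE 0.29; edgeR adjusted p = 0.767). Usp31, a deubiquitinase, had 146, 114 and 189 CPM against 116, 113 and 136 CPM, also overlapping (log2 0.30, SE 0.29). Dync1h1, the heavy chain of cytoplasmic dynein, had the lowest log2 fold change of the class, -1.16 (SE 0.53; edgeR adjusted p = 0.485). Its control IP values were 561, 161 and 98.3 CPM against 179, 118 and 69.4 CPM in Roquin IP, with control IP replicate 1 the highest of all 9 libraries. The log2 difference of Dync1h1 was -0.09 without control IP replicate 1 and -1.56 without control IP replicate 3. Cep350, a centrosomal protein, had 185, 50.2 and 39.6 CPM in control IP. Its replicate 1 was the highest in the other groups too, with 102, 75.7 and 43.4 CPM in Roquin IP and 187, 65.6 and 56.5 CPM in the input. The log2 difference of Cep350 from control IP was -0.31. It became 0.71 without control IP replicate 1 and -0.03 with the replicate block.

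Further uncalled members with many reads per library gave these values. Chd1, a chromatin remodeller, stood at log2 0.38 (SE 0.29). Alcam, an adhesion receptor, stood at 0.73 (SE 0.32), and Msi2, a Musashi RNA-binding protein, at 0.26 (SE 0.27). 1110037F02Rik (Virma), a subunit of the m6A methyltransferase complex, stood at -0.61 (SE 0.35), and Ddx23, a helicase of the spliceosome, at -0.30 (SE 0.31). None of these passed the test, and scaling by library size alone gave a negative log2 difference for Usp31, Chd1, Alcam and Msi2. Further members, tested and called in no comparison by edgeR without the block, included Dmap1, Rara, Pknox1, Mre11a, Gltscr1, Plcb4, Rab12, Tex2, Usp48, Coq3, Melk, Mrpl1, Snrnp48, Pcdhgc5, Gm7120, Tmem192 and Zfp35. Their log2 fold changes lay between those of Rbbp9 (-0.92) and Hs2st1 (0.78), which were not called either. Pcdhgc5 shares 2119 exon bases with several neighbouring protocadherin genes on the same strand, so its count is uncertain.

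**Figure D3:**
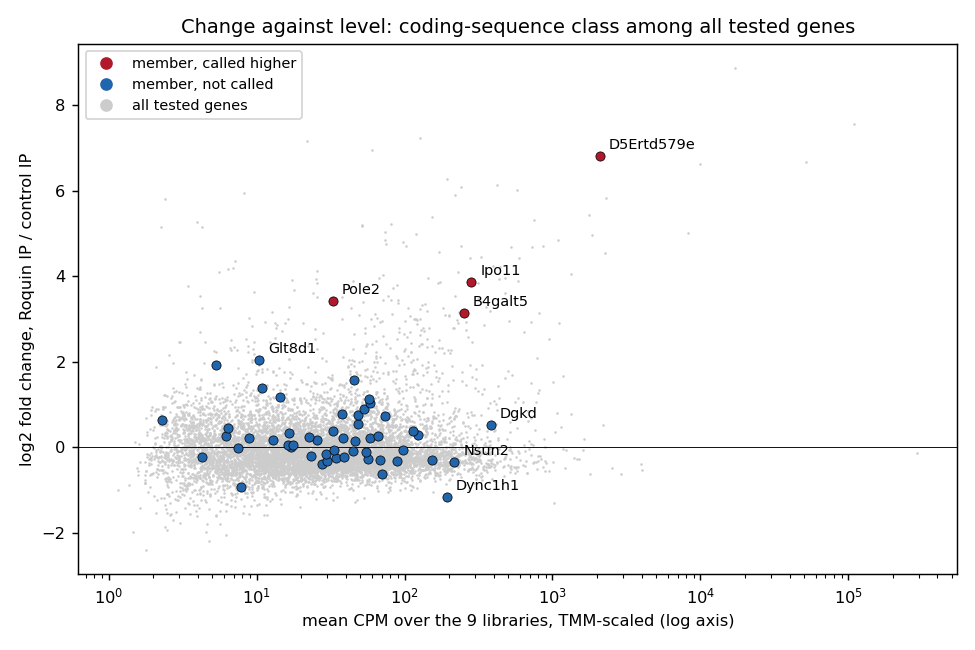
Log2 fold change of Roquin IP against control IP (y axis) against the mean level over the 9 libraries (x axis, CPM, log axis) for all tested genes (grey) and the tested members (blue, or red where called higher). The members spread from 2.30 to 2081 CPM (CPM is not per length). Called members lay at 32.9 to 2081 CPM and uncalled ones at 2.30 to 382 CPM. This mean includes the Roquin IP libraries, so a higher level there raises it. In the input alone the means were 7.90 to 81.8 CPM in called and 1.97 to 234 CPM in uncalled members.

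Identical stem-loops occurred in called and uncalled members. Each of the 4 called mRNAs shared one of its 13-base stem-loops (5 pairs and the loop) with another tested member that was not called. This pairing was made after the values were seen and is a description. The partner stem-loops are printed here for comparison with those of D5Ertd579e (second), Ipo11 (second), Pole2 and B4galt5 above, and the matching 13 bases lie at the centre of each.
Ap3d1: aggccaTCTTCCATGAAGAagagcc
Tk1: ttgtggATTTCTGTGAAATgatggc
Ddx23: ggcggATCTTCCGTGAAGATtacag
Ppp1r13b: agctgtCCTTCCATGAAGGggatgc
The cores lie at chr10:80715931-80715939 in Ap3d1 (exon 16), chr11:117817165-117817173 in Tk1 (exon 5 of 7), chr15:98650704-98650712 in Ddx23 (exon 10) and chr12:111830360-111830368 in Ppp1r13b (exon 16), all on the minus strand. Ap3d1, the delta subunit of the AP-3 adaptor, had 52.9, 51.2 and 46.7 CPM in Roquin IP and 69.7, 50.9 and 41.6 CPM in control IP. Its log2 difference was -0.10 (edgeR adjusted p = 0.933), beside 6.81 for D5Ertd579e. Ddx23 had 53.7, 48.9 and 78.4 CPM in Roquin IP and 64.0, 65.3 and 94.2 CPM in control IP. Both genes had overlapping groups. Ddx23 differed by -0.30 (edgeR adjusted p = 0.806), beside 3.43 for Pole2, and its stem has 6 Watson-Crick pairs where that of Pole2 has 5. Ppp1r13b, which encodes the p53-binding protein ASPP1, had 6.71, 10.1 and 6.97 CPM against 10.1, 7.45 and 6.88 CPM in control IP. It differed by -0.01 (edgeR adjusted p = 0.996), beside 3.14 for B4galt5, whose stem has 6 Watson-Crick pairs where that of Ppp1r13b has 5. D5Ertd579e and Ipo11 each hold another full stem-loop as well, which Ap3d1 and Tk1 lack, so the pairs are not matched in all else. Tk1, the cytosolic thymidine kinase, was the exception among the partners. It had 71.3, 74.6 and 75.1 CPM in Roquin IP and 35.3, 50.2 and 45.8 CPM in control IP, which did not overlap (log2 0.75, SE 0.27; edgeR adjusted p = 0.262). With library size alone the log2 difference of Tk1 was -0.10.

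**Figure D4:**
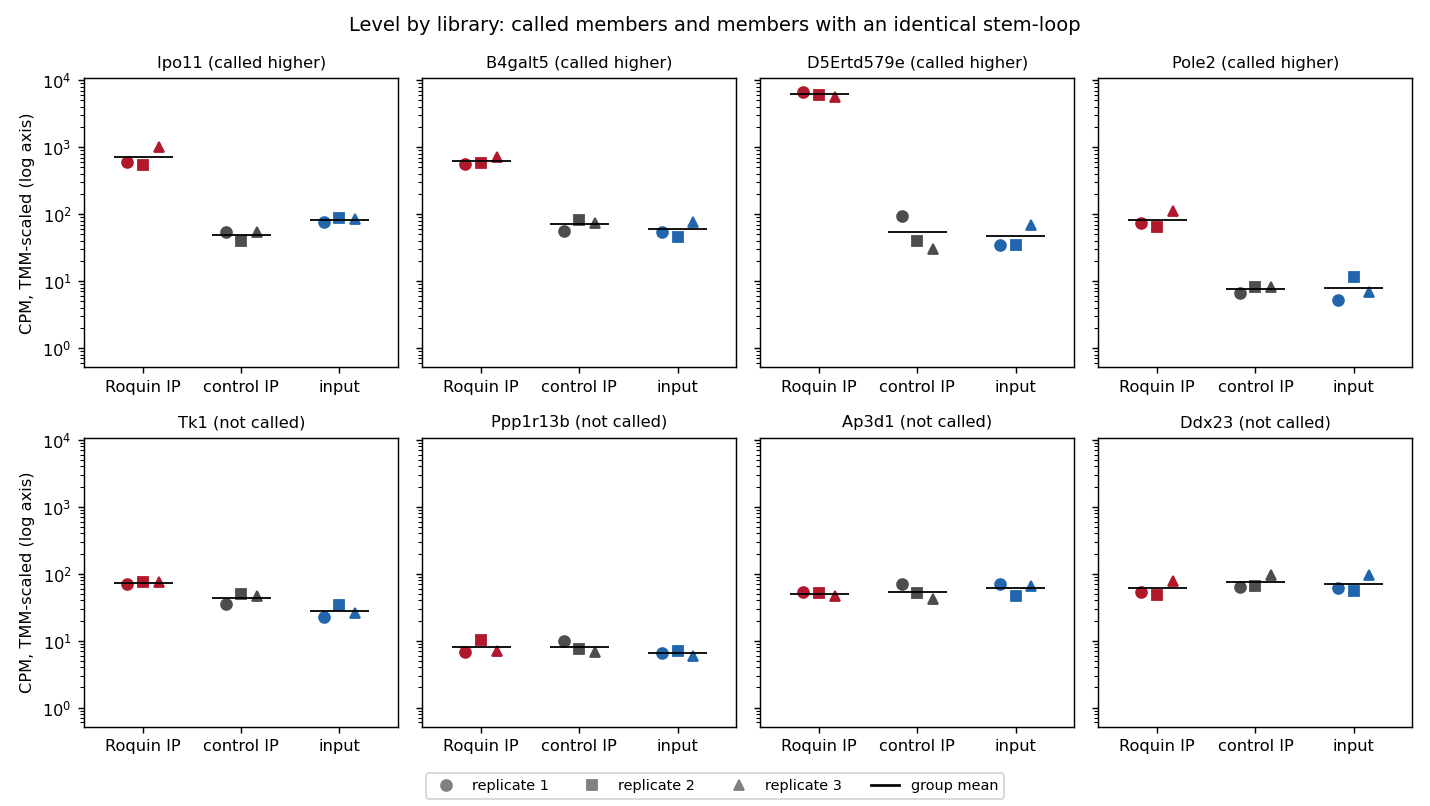
Level in CPM (log y axis, TMM-scaled) in each of the 9 libraries for the 4 called members (top row) and, below each, an uncalled member with an identical 13-base stem-loop; symbols mark replicate numbers and the horizontal bar is the group mean. All Roquin IP points of the top row lie above the control IP and input points, and in the bottom row this holds for Tk1 alone.

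Several coding stem-loops, of called and of uncalled members, were identical to those of mRNAs that Roquin IP recovered strongly. The class held 43 distinct 13-base stem-loops, 19 of which were also found in a 3′ UTR of the genes with a predicted 3′ UTR element. Zmynd8, a bromodomain and zinc finger protein, carried the 13 bases of the Tnf stem-loop. Itgav and Siglec1, a sialic acid receptor of macrophages, carried those of Rc3h1 and Rc3h2. Paf1, a subunit of the transcription elongation complex of that name, carried a stem-loop found in Nfkbid and Phf13. Of the called members, Ipo11 carried in its second stem-loop, the one it shares with Tk1, the 13 bases found in Nfkbid and Icos, and B4galt5 carried those of Scmh1. The coding versions in the other 4 members were as follows.
Zmynd8: atccccTTTTCTGTGAAAAagacta
Itgav: atggatACTTCTGTGAAGTttgact
Siglec1: gcttctACTTCTGTGAAGTgcagaa
Paf1: attgggGTTTCTGTGAAACagcagt
These cores lie at chr2:165828630-165828638 (Zmynd8, exon 12, minus strand), chr2:83794284-83794292 (Itgav, exon 22, plus strand), chr2:131083346-131083354 (Siglec1, exon 5, minus strand) and chr7:28395961-28395969 (Paf1, exon 7, plus strand). Zmynd8 had 29.4, 33.1 and 31.8 CPM in Roquin IP and 20.7, 21.6 and 29.4 CPM in control IP. The lowest Roquin IP library lay level with the highest control IP, and the log2 difference was 0.39 (SE 0.30; edgeR adjusted p = 0.736) beside 7.57 for Tnf. Paf1 stood at -0.33 (SE 0.31), beside 2.30 for Phf13 and 8.87 for Nfkbid, which also carries the different stem-loop found in Ipo11. Itgav stood at 1.13 (SE 0.38) and Siglec1 at 0.64 (SE 0.80), beside 6.63 for Rc3h1 and 5.45 for Rc3h2. Siglec1 had the lowest mean level of the tested members, 2.30 CPM. In folds of the 25-base windows predicted with RNAfold, Itgav and Paf1 formed the core stem with its 3-base loop. The windows of Zmynd8 and Siglec1 were not predicted to fold so. Ipo11 stood at 3.86, beside 4.35 for Icos, and B4galt5 at 3.14, beside 1.61 for Scmh1. Not all 3′ UTR genes with these 13 bases were called. Of those tested, 3 of 5 were called higher for the sequence of Zmynd8 and 2 of 3 for that of Itgav and Siglec1. The counts were 2 of 2 for Paf1, 3 of 8 for Ipo11 (second) and 1 of 1 for B4galt5. Over all 19 such sequences, 40 members carried one, 30 of them were tested, 2 (Ipo11 and B4galt5) were called higher (6.67%, background 3.76%) and the median log2 fold change was 0.23. Of the 67 genes with the same 13 bases in a 3′ UTR, 46 were tested, 19 were called higher and the median was 1.11. These sets differ in many ways besides the position of the stem-loop, and the difference was not tested.

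D5Ertd579e and Ipo11 differed from all other members, the called Pole2 and B4galt5 included, in their number of full stem-loops. Each held 2 full stem-loops, and they were the only members of the 80 to do so. They also had the highest log2 fold changes of the class. The other 78 members held 1, of which 53 were tested, 2 were called higher (background 3.76% of all tested genes) and the median was 0.21. This was noticed after the values were seen, rests on 2 genes and was not tested. It also depends on the cutoff of 5 pairs, since 9 members, these 2 genes included, held 2 coding cores. Among them Ap3d1, Usp48, Macf1, Ddx23 and Cep350 were tested and not called. Their log2 fold changes ran from -0.31 (Cep350) to -0.10 (Ap3d1). The stem lengths of all 82 full stem-loops were 5 pairs in 69, 6 in 11 and 7 in 2, and the 4 called mRNAs had a longest stem of 5 (Pole2), 6 (D5Ertd579e and B4galt5) and 7 (Ipo11) pairs. Predicted folding of the 25-base windows with RNAfold gave a lowest free energy of -9 to -2.5 kcal/mol in the 4 called members (median -5.5) and of -7.9 to 0 in the 51 uncalled ones (median -3.1), which overlap. The core stem and 3-base loop was the predicted fold for 63 of 82 stem-loops (76.8%).

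Other features of the coding stem-loops varied widely within the class. They lay from 2.8% to 99.2% along the coding sequence, with a median of 47.8%. The most frequent loops, as DNA letters, were TGT (26 of 82), TAT (20 of 82) and CAT (17 of 82). The core began on the first base of a codon in 47 of 82 cases (57.3%), on the second in 5 (6.1%) and on the third in 30 (36.6%). Over the 1132 coding cores of all genes these shares were 55.7%, 6.9% and 37.4%, so the reading frame of the members' cores was close to that of cores at large. The coding length was similar, with a median of 2266.5 bases in called and 2271 bases in uncalled tested members. In 7 members, among them Chd1, Glra3, Gm766, Hs2st1, Samd8 and Usp31, a 3′ UTR also held the core. None of the 7 was among the 4 called (background 3.76% of all tested genes). Glra3 and Gm766 had 0 reads in all 9 libraries and could not be called.

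Coding cores also occurred outside the class. Genes without a predicted element but with a coding core on a shorter stem numbered 898, of which 427 were tested, 15 were called higher (3.51%, background 3.76%) and the median log2 fold change was -0.10. A further 87 genes reached 5 pairs only with G-U wobble pairs. Of 45 tested, 3 were called higher (6.67%, background 3.76%): N4bp2l2, 1300001I01Rik and Akap10. That share was close to the 7.27% of the coding class, and the median log2 fold change was -0.05. The highest log2 fold change of these 45 genes was 1.93, beside 6.81 in the coding class. Just 4 genes without a prediction held a full Watson-Crick stem-loop (Henmt1, Rabl6, Ccdc7 and Zfyve9). Rabl6 was the only one of these with enough reads, and it was not called (log2 0.44; edgeR adjusted p = 0.654).

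The comparison of Roquin IP with input asked how the members stood relative to the RNA of the lysate. Here 9 of 55 members were higher (16.4%, background 5.45%) and 1 was lower (1.82%, background 2.79%). The 4 mRNAs above were again called: D5Ertd579e at log2 7.05, B4galt5 at 3.39, Pole2 at 3.39 and Ipo11 at 3.13. This comparison shares the Roquin IP libraries with the one above. The 5 further calls were Glt8d1 (2.34), Mios (1.77), Dgkd (1.44), Tk1 (1.43) and Zcchc2 (1.35). All 3 Roquin IP libraries were above all 3 inputs for each of them. The median of the class against input was -0.01, as it was for all tested genes (-0.01).

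Tk1 had 22.8, 33.6 and 25.8 CPM in the input, all below the control IP values as well as the Roquin IP values given above. Against input it was higher by log2 1.43 (SE 0.28; edgeR adjusted p = 0.00668). Dgkd, diacylglycerol kinase delta, had 726, 591 and 345 CPM in Roquin IP, 519, 441 and 200 CPM in control IP and 245, 229 and 138 CPM in the input. Library 3 was the lowest in each group, and Roquin IP overlapped control IP. Dgkd was higher than input by log2 1.44 (edgeR adjusted p = 0.0358) but differed from control IP by 0.52 (edgeR adjusted p = 0.722). Zcchc2 had 103, 72.3 and 73.0 CPM in Roquin IP, 53.3, 41.5 and 38.2 CPM in control IP and 26.9, 34.4 and 36.2 CPM in the input, with the 3 groups in that order and no overlap. The beads-only libraries thus also lay above the inputs for Tk1 and Zcchc2, by log2 0.68 and 0.45, neither of which was called.

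Macf1, a giant cytoskeletal linker of actin and microtubules, was the member called lower against input. It had 114, 118 and 72.1 CPM in Roquin IP, 171, 104 and 97.9 CPM in control IP and 300, 187 and 216 CPM in the input. Both kinds of IP were below every input, and Roquin IP overlapped control IP. Macf1 fell by 1.21 on the log2 scale against input (SE 0.32; edgeR adjusted p = 0.0304). Several of the further calls ended when a library was left out. Leaving out any of the 6 Roquin IP and input libraries ended the call of Macf1 (edgeR adjusted p 0.0511 to 0.150) and that of Mios (0.0518 to 0.126), which was also lost without control IP replicate 2 (0.0512). The call of Dgkd was lost without Roquin IP replicate 1 or 2 or any input (edgeR adjusted p 0.0722 to 0.155), and that of Glt8d1 without Roquin IP replicate 2 or 3 or input replicate 1 or 3 (0.0581 to 0.115). Zcchc2 was lost without Roquin IP replicate 1 (0.0676). Scaling by library size alone ended the calls of Glt8d1, Mios, Dgkd, Tk1 and Zcchc2. With the replicate block, 13 members were higher (background 9.99%) and 6 lower (background 8.04%) than the input, and DESeq2 called 12 higher (background 7.44%) and 4 lower (background 5.67%). Beyond the calls named above, the block added Hs2st1, Magi1, Mesdc1 and Samd8 as higher and 1110037F02Rik, Chd1, Dis3, Iws1 and Paf1 as lower. DESeq2 added Magi1, Mesdc1 and Samd8 as higher and 1110037F02Rik, Iws1 and Paf1 as lower. Exons of Tk1 and Dgkd overlap Afmid (83 bases) and Usp40 (62 bases) on the opposite strand.

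The comparison of control IP with input asked how the RNA held by beads alone differed from the lysate. edgeR called 0 of the 55 members higher (background 0.815%) and 0 lower (background 0.303%), with 4 higher (background 10.8%) and 9 lower (background 9.53%) at an unadjusted edgeR p under 0.05. DESeq2 called Mesdc1 higher (background 4.23%) and Chd1, Itgav and Iws1 lower (background 4.19%). The fit with the replicate block called Dgkd and Mesdc1 higher (background 6.65%) and Chd1, Dis3, Ipo11, Itgav, Iws1 and Macf1 lower (background 5.78%). Ipo11 is the only one of the 4 leading mRNAs among them: its log2 fold change of control IP against input was -0.73 (edgeR adjusted p = 0.186 without the block). Mesdc1 had 24.4, 35.5 and 54.4 CPM in control IP and 11.8, 14.2 and 19.8 CPM in the input, and 30.6, 28.1 and 44.9 CPM in Roquin IP. Both IPs were above the input for this gene and overlapped each other, with log2 -0.15 for Roquin IP against control IP.

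The 25 members under the count filter could not be tested. Of these, 13 had 0 reads in all 9 libraries: the olfactory receptor genes Olfr347, Olfr889, Olfr890, Olfr1016 and Olfr1043, and Dlc1, Fzd4, Glra3, Gm766, Hrnr, Prom2, Rassf6 and Sult1c2. A count of 0 allows up to 3 counts, or 0.258 to 1.49 CPM depending on the library, counting error only. The other 12 had 1 to 136 reads in all. 1810063B05Rik (Coa6), an assembly factor of cytochrome c oxidase, had the most, with counts of 8, 25 and 29 for Roquin IP, 0, 11 and 22 for control IP and 29, 7 and 5 for input. Kctd1 had 27 reads over the 9 libraries and Zfp462 had 11, of which 8 were in input replicate 1. The remaining 9 (Sult1a1, Pbld1, Pbld2, Fbxo24, Folr1, Adarb2, Pacsin3, Trank1 and 4930415L06Rik) had at most 7 reads. Pbld1 and Pbld2 have 25 of 25 identical bases in the stem-loop window, and Olfr889 and Olfr890 have 24, so these windows are not independent sequences.

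The mRNAs of the pathway itself place the class beside known targets. Of 17 reported Roquin targets, several of them reported from these same libraries, 12 were tested and 10 were called higher over control IP (median log2 fold change 4.10). Of 18 genes of Roquin and the decay machinery, all tested, 5 were higher: Rc3h1, Rc3h2, the CCR4-NOT subunits Cnot2 and Cnot7, and the decapping enzyme Dcp2. None of either list was lower. One CCR4-NOT subunit, Cnot10, is a member of the coding class. It had 21.8, 17.6 and 21.3 CPM in Roquin IP and 32.6, 15.3 and 21.7 CPM in control IP, and the overlapping groups differed by log2 -0.19 (edgeR adjusted p = 0.895).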

How the data were processed

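The authors' deposited table held raw counts of reads per gene in the 9 libraries, per the file headers. Beside them stood the ratio Roquin IP / control IP, deposited on a linear scale although its header names log2, a p-value for it deposited without a statement of adjustment, and the CDE prediction as a text class. Per the submitters' processing notes, the tools were CASAVA 1.8.2, BWA and DESeq 1.8.3. No source used here gives the genome build, annotation or strand handling. Entries with no symbol were all empty and were left out.

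Members were the genes predicted ORF. The members, lists and tests were chosen with earlier results of these data known. Counts of all 9 libraries were fitted in edgeR 4.0.16 (quasi-likelihood, TMM, filterByExpr with a minimum count of 10, group as the only term; R 4.3.3), which left 9567 genes over which p-values were adjusted. The common biological coefficient of variation was 0.35. The fit was tested on simulated data. 1 CPM stood for 2.02 to 11.6 counts, and no libraries were duplicates. Named were all members called in any comparison, the 10 uncalled ones of highest mean CPM, the 5 with the smallest adjusted p against control IP, and the 3 with most reads under the filter. Genes named beyond this rule, such as the partners with identical stem-loops, were chosen after their values were seen. The values of 2 members are not reported here, though they count in all totals.

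The labels number the replicates but name no shared day. Deviations from the group means correlated at 0.152 to 0.580 between same-numbered libraries and at -0.433 to -0.0185 between others. Because deviations within a group cancel, the negative values follow in part from the positive ones and are no separate sign of pairing. A fit with the replicate block was therefore run as an alternative only. Further alternatives were RLE factors, library size alone, no filter, DESeq2 1.42.0, only the 6 libraries compared, library sizes without Lars2 and Tnf, and each library left out. Of the members 73 were matched to GENCODE M21 by symbol and 7 by a RefSeq synonym, coding sequences were searched with Python 3.11.15, and windows of 25 bases were folded with RNAfold 2.7.2.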

Additional observations from a re-analysis of the deposited data

How the results depend on the processing

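The 4 members called higher over control IP were called in all 16 alternatives. With the replicate block, 11 members were higher over control IP, 13 higher and 6 lower than input, and 2 higher and 6 lower in control IP against input; the block ended no member's call. DESeq2 called 8 higher over control IP, 12 higher and 4 lower than input, and 1 higher and 3 lower in control IP against input. Without a filter, 67 members and 14155 genes were tested. The calls were then 7 higher (10.4%, all genes 3.25%) and 1 lower (1.49%, all genes 0.148%) over control IP, 11 higher (16.4%, all genes 4.83%) and 3 lower (4.48%, all genes 2.94%) than input, and 1 higher and 1 lower in control IP against input (1.49% each, all genes 2.37% and 1.62%). Library size alone gave 4 higher (7.27%, all genes 2.69%) and 13 lower (23.6%, all genes 38.8%) over control IP (class median -0.61) and 4 higher (7.27%, all genes 2.71%) and 16 lower (29.1%, all genes 27.9%) than input (class median -0.75). Under it the log2 difference from control IP turned to -0.10 for Tk1, -0.31 for Dgkd, -0.52 for Usp31, -0.44 for Chd1, -0.10 for Alcam and -0.58 for Msi2. RLE factors gave 2 lower than input (283 of all 9567 genes). A fit of only the 6 libraries compared gave 3 lower than input (365 of all 8846 genes) and a class median of 0.28 over control IP. Leaving out 1 library gave 4 to 5 members higher over control IP (276 to 378 of all genes), with a class median of 0.10 to 0.27. Against input it gave 6 to 13 members higher (298 to 679 of all genes) and 0 to 4 lower (30 to 452 of all genes). In control IP against input it gave 0 to 1 higher (0 to 185 of all genes). The class median there ran from -0.35 (without control IP replicate 1) to -0.0078 (without control IP replicate 2). These fits tested 9644 to 9812 genes. With a library left out the log2 difference from control IP ranged from -0.68 (without control IP replicate 3) to 0.71 (without control IP replicate 1) for Cep350, and Macf1 turned to 0.00064 without control IP replicate 1. The causes were not tested. Over all named genes and alternatives, 485 values kept direction and side of the threshold, 23 passed it newly, 28 no longer passed and 8 reversed. Input libraries had the fewest reads (1799390 to 2122288), which limits low members most, and levels are shares of a library, so no absolute amount is known.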
